A study of Mus musculus with 2 samples.

Results

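The regions described here were 1 kb windows of the mouse autosomes in which tags from a Brg1 chromatin immunoprecipitation (ChIP) were densest while input tags stayed few. A member was any autosomal window with 30 or more ChIP tags and 9 or fewer input tags, after every tag was moved 75 bp along its strand. Of 2472332 autosomal windows, 13407 met the rule, which is 0.542%. They were set beside 1108583 comparison windows with 4 to 8 ChIP tags. Because the number of tags chose the members, tag numbers are given as a description only. Distances between ChIP tags were not part of the rule but come from the tags that chose the windows, so they too are a description. The positions of input tags, as opposed to their number, were not used.

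The study made 1 ChIP library and 1 input library from primary embryonic fibroblasts, harvested at E13.5 from wild type mice of a C57BL/6 and 129 mixed background. Nuclei were digested with micrococcal nuclease and sonicated briefly. The ChIP used a rabbit polyclonal antibody against SNF2β/BRG1, and the input used no antibody. Per the labels, libraries were prepared for Helicos sequencing. The labels do not state how many embryos were pooled. Whether the cells carried fibroblast markers was not analysed here, because the gene table at hand is not on the build of the files, mm9. For the same reason no gene is named, no sequence is printed, and positions are those of the files in mm9. With 1 library in each group there was no replicate check and no test of a condition. Each value is therefore given for all windows pooled, with its spread over the 19 autosomes, which are parts of the same library and not replicates.

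Swi/Snf is a chromatin remodelling complex that slides nucleosomes along DNA and can remove them, and Brg1 is an ATPase that drives it. Micrococcal nuclease cuts the linker between nucleosomes faster than the DNA wrapped around them, so tag ends collect near nucleosome borders and distances between tags carry a trace of nucleosome spacing. Within a nucleosome the helix is exposed once each turn, which can leave a finer step in the distances between cuts.

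The members held 486967 ChIP tags, or 3.685% of the autosomal ChIP tags, and 47481 input tags, or 0.847% of the autosomal input. The ChIP library had 13581267 tags in all and the input 5778620. A member had a median of 35 ChIP tags (lowest 30, highest 111) and a median of 3 input tags (lowest 0, highest 9). On average this came to 36.3 ChIP and 3.54 input tags, against 5.61 and 2.55 in comparison windows. Many members sat close to the threshold, with 6607 at 30 to 34 ChIP tags. No input tag fell in 405 members (3.02%), 3873 had 1 to 2 input tags and 9129 had 3 to 9.

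ChIP tags were spread through a member and not stacked at a few positions. The middle 80% of its tags covered a median of 731 bp (284 to 949), where even placement gives 800 bp. The plus strand held 49.9% of the tags, and 13155 members (98.1%) had a plus share of 30 to 70%. Positions listed with 2 tags were more frequent in members, at 3.28% of positions, than in comparison windows, at 0.497%. Such repeats grow with tag density, which was 36.3 tags per member against 5.61 per comparison window. No expectation for them was computed, so the difference is not read as extra stacking in members. With at most 1 tag kept per strand within 5 bp, 86.2% of the members' tags were left and 7731 members (57.7%) still held 30 or more.

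Members lay singly or in short runs. They formed 9851 runs of adjacent windows, of which 7272 were 1 window long, 1918 had 2 windows, 452 had 3 and 136 had 4. Only 2 runs reached 8 windows. The median distance from a member to the next was 31 kb, 38.2% had the next within 10 kb, and 29.3% had it beyond 100 kb. By chromosome, the share of windows that were members was lowest on chromosome 14 (0.399%) and highest on chromosomes 11 (0.866%) and 19 (0.783%).

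The members with most ChIP tags and the longest runs show what the rule selected. The window chr13:54795000-54795999 had 111 ChIP tags and 8 input tags, and 70 ChIP tags remained with 1 per strand within 5 bp. The window chr9:31088000-31088999 had 104 ChIP tags against 6 input tags, with 73 remaining, the most of any member. The window chr4:59328000-59328999 had 87 against 6, with 67 remaining. These 3 windows led under either way of counting. The next, chr8:107695000-107695999, had 84 ChIP tags and 3 input tags, and chr17:30746000-30746999 had 78 and 8. By all tags chr3:21975000-21975999 and chr15:76026000-76026999 were tied (73 and 2 each), and the first was listed sixth by the order of chromosomes. With neighbours removed chr15:76026000-76026999 was sixth, where it kept 58 tags against 50. The longest runs were chr3:87942000-87949999, with 299 ChIP and 27 input tags in 8 windows, and chr5:143578000-143585999, with 308 and 26 in 8 windows. Among the runs of 7 windows the first by position was chr2:173086000-173092999, with 262 ChIP and 26 input tags.

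To describe spacing, every pair of tags in the same window was counted by distance and divided by the number that even placement of the same tags would give, so that 1 means no preference. For tags on opposite strands the distance runs from the plus-strand to the minus-strand position. A pair is called facing where the minus-strand position lies to the right and back-to-back where it lies to the left. These names refer to listed positions only. Neither the labels nor the files state the read length, or whether a minus-strand position marks the start or the leftmost base of a tag. No distance is therefore taken as a fragment length. The convention is the same in members and comparison windows. Counts of opposite-strand pairs, smoothed with an 11 bp running mean and not divided by the expectation, were highest between 60 and 250 bp at 149 bp in members and 150 bp in comparison windows. Even placement in windows of moved tags already peaks at 150 bp. Over that expectation the smoothed level at the same distance was 1.04 in members and 1.02 in comparison windows.

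Opposite-strand pairs were distributed differently in the 2 kinds of window. In members the most frequent single distance over expectation, without smoothing, was -6 bp, a back-to-back pair, with 5495 pairs and a level of 1.47. In every autosome it lay between -7 and -5 bp. In comparison windows the most frequent distance was 33 bp, a facing pair, with 8937 pairs and a level of 1.32 (range over autosomes -6 to 42 bp). At 33 bp members stood at 1.10, and at -6 bp comparison windows stood at 1.12. Both kinds of window had the same gap at -2 bp, where the level was 0.678 in members and 0.673 in comparison windows. The short back-to-back pairs were thus the feature by which members stood above, and the short facing pairs the feature by which they stood below.

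**Figure D1:**
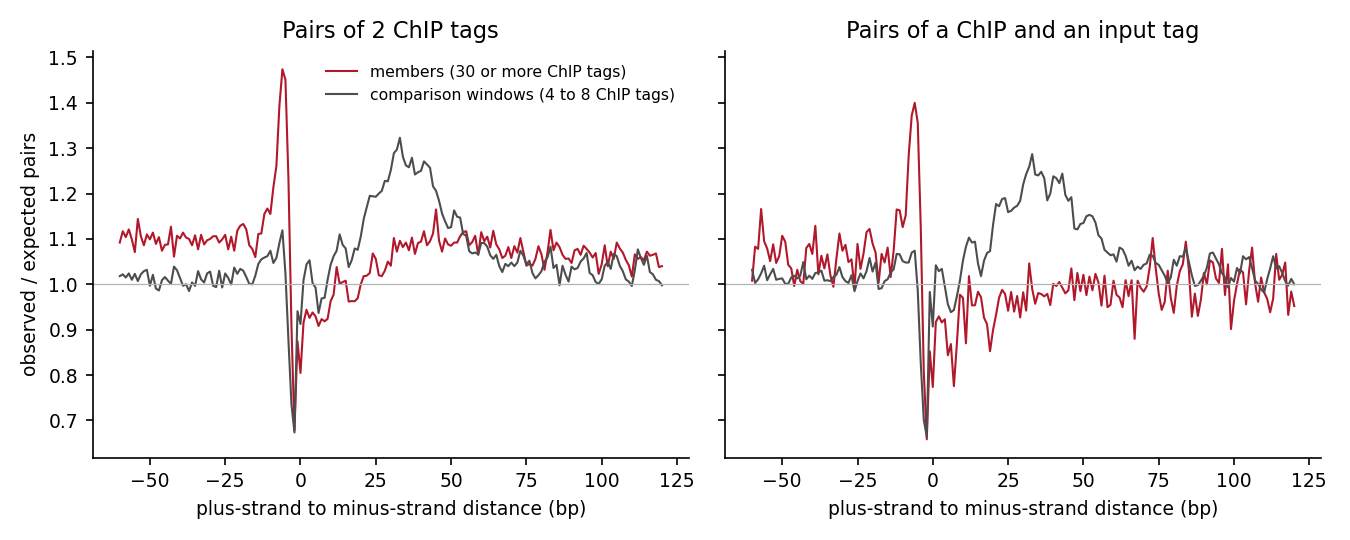
Observed over expected pairs (vertical axis) by distance in bp from a plus-strand to a minus-strand position, for 2 ChIP tags (left) and for a ChIP and an input tag (right). Members (red) have their highest value at -6 bp in both panels, comparison windows (grey) at 33 bp, and both have a gap at -2 bp.

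Back-to-back pairs at 4 to 8 bp numbered 25395 in members where 18640 were expected, a level of 1.36. In comparison windows the level was 1.03. Members were also above 1 at neighbouring distances, so the level at 4 to 8 bp was divided by that at 20 to 40 bp, which was 1.10 in members and 1.01 in comparison windows. This back-to-back ratio was 1.239 ± 0.040 in members (SD over 19 autosomes, lowest 1.18, median 1.23, highest 1.33) and 1.022 ± 0.027 in comparison windows (lowest 0.975, median 1.01, highest 1.08). The ranges over autosomes did not overlap, and members were higher in 19 of 19. Such a pair was present in 10361 members (77.3%). The median member had 2, and 1060 members had 5 or more. The most, 29, were in chr13:54795000-54795999, the member with most tags, and chr9:31088000-31088999 had 19. Pairs in a window share tags and their number grows with the tags, so these counts are not independent of each other. Even placement would give 18640 such pairs over 13407 members, and so a pair in many of them. The share of members under even placement was not computed, so 77.3% does not measure how widespread the excess is.

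Short facing pairs showed the opposite order. At 30 to 45 bp the level was 1.09 in members, from 68574 pairs, and 1.26 in comparison windows, from 137070 pairs. Divided by the level at 60 to 80 bp, the short facing ratio was 1.016 ± 0.031 in members (lowest 0.975, median 1.01, highest 1.08) and 1.202 ± 0.033 in comparison windows (lowest 1.13, median 1.20, highest 1.26). Members were lower in 19 of 19 autosomes and the ranges did not overlap. The 30 to 45 bp maximum of comparison windows was therefore close to flat in members.

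No maximum of nucleosome length appeared among facing pairs of ChIP tags. At 130 to 160 bp the level was 1.04 in members and 1.02 in comparison windows, with members higher in 15 of 19 autosomes. In an 11 bp running mean, the highest level between 60 and 250 bp lay at the lower edge of that range, 60 bp, in both.

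Pairs of a ChIP tag and an input tag offer a view of the same windows through a library whose positions had not chosen them. In these pairs too the most frequent distance was -6 bp in members, with 1022 pairs and a level of 1.40, and 33 bp in comparison windows, at 1.29. Single autosomes held too few pairs to place this maximum in members, with values from -290 to 271 bp. Over the range of 4 to 8 bp there were 4774 back-to-back pairs in members where 3651 were expected, a level of 1.31, against 1.00 in comparison windows. The back-to-back ratio was 1.229 ± 0.112 in members (lowest 1.05, median 1.23, highest 1.48) and 0.983 ± 0.033 in comparison windows (lowest 0.941, median 0.982, highest 1.07). Members were higher in 19 of 19 autosomes, although the lowest members' value fell inside the range of comparison windows. The short facing ratio was 0.996 ± 0.066 in members (lowest 0.912, median 0.990, highest 1.13) and 1.176 ± 0.027 in comparison windows (lowest 1.12, median 1.18, highest 1.22), with members lower in 19 of 19. At 130 to 160 bp members stood at 1.015 and comparison windows at 1.018. In an 11 bp running mean, the highest level of these pairs between 60 and 250 bp was 1.04 at 170 bp in members and 1.07 at 60 bp in comparison windows. In single autosomes the members' position ran from 94 to 250 bp, so it was not resolved.

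**Figure D2:**
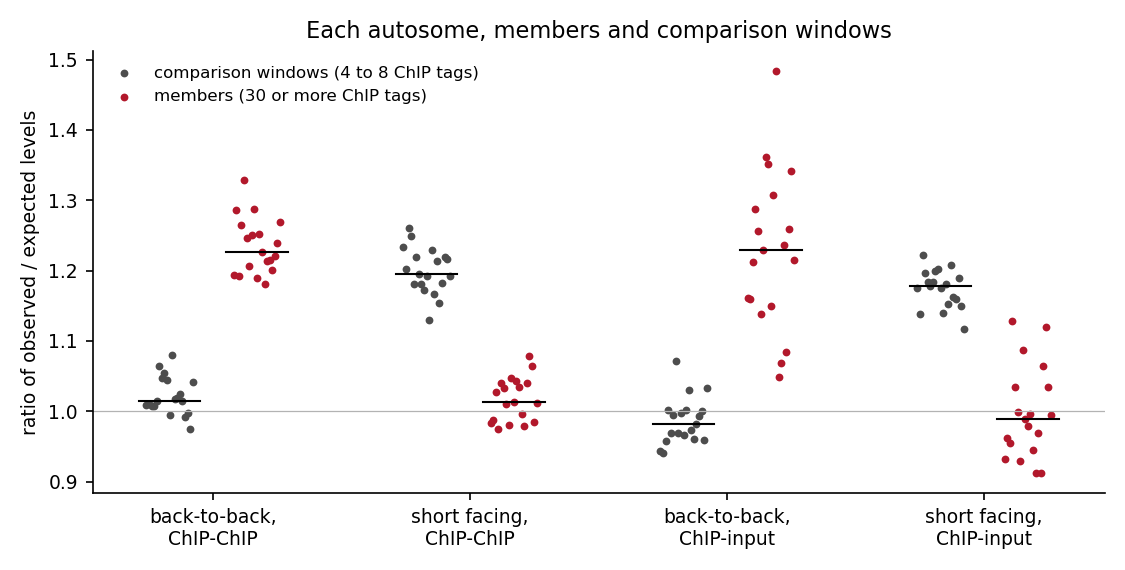
Back-to-back and short facing ratios (vertical axis, ratio of observed over expected levels) in each of the 19 autosomes, for comparison windows (grey) and members (red); the horizontal bars are medians. Members sit above comparison windows in the back-to-back ratio and below them in the short facing ratio, both in pairs of 2 ChIP tags and in pairs of a ChIP and an input tag, where members spread more widely.

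The input library alone was too thin in members to resolve back-to-back pairs. Among pairs of 2 input tags, members had 185 back-to-back pairs at 4 to 8 bp, a ratio of 1.04 against 0.993 in comparison windows, and were higher in 10 of 19 autosomes. A difference of the size seen with ChIP tags was not detectable at this depth, since the SD over autosomes of this ratio was 0.507 in members. Short facing pairs of input tags were more frequent, with 587 in members. Their level at 30 to 45 bp was 0.980 in members and 1.21 in comparison windows, lower in members in 18 of 19 autosomes. The ratio to 60 to 80 bp was 0.987 and 1.15, lower in members in 15 of 19. The low short facing level of members was thus also measured without any ChIP tag.

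Both features changed with the number of ChIP tags in a window, starting below the threshold of 30. Among windows with 9 or fewer input tags, the back-to-back ratio of ChIP tags was 1.02 at 4 to 8 tags, 1.03 at 9 to 20 and 1.12 at 21 to 29. Within members it was 1.20 at 30 to 34 tags, 1.24 at 35 to 39, 1.29 at 40 to 49 and 1.22 at 50 and over. The SD over autosomes was 0.0638, 0.0703, 0.0840 and 0.152 in these 4 classes (ChIP tags 30 to 34, ChIP tags 35 to 39, ChIP tags 40 to 49 and ChIP tags 50 and over), so that neighbouring classes did not differ beyond their spread. The short facing ratio was 1.20 at 4 to 8 tags, 1.14 at 9 to 20 and 1.03 at 21 to 29, and lay between 1.00 and 1.02 in the 4 classes of members. The short facing ratio had thus come down already in the 28017 windows with 21 to 29 tags.

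Pairs of a ChIP and an input tag gave a like order of classes. Their back-to-back ratio was 0.983 at 4 to 8 ChIP tags, 1.03 at 9 to 20, 1.10 at 21 to 29, and 1.21, 1.22, 1.23 and 1.36 in the classes of members, where ChIP tags 50 and over had an SD of 0.404. Their short facing ratio was 1.18 at ChIP tags 4 to 8 and also at ChIP tags 9 to 20, 1.05 at ChIP tags 21 to 29, and 0.994, 0.993, 0.994 and 1.03 in members.

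**Figure D3:**
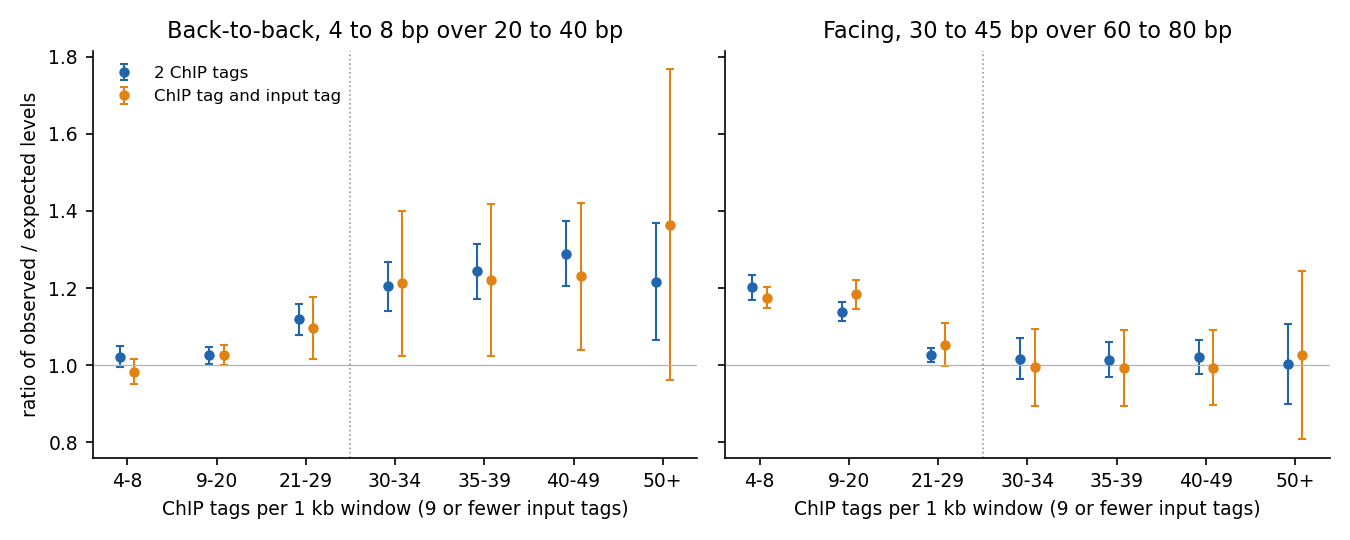
Back-to-back ratio (left) and short facing ratio (right) by the number of ChIP tags in a 1 kb window, for pairs of 2 ChIP tags (blue) and of a ChIP and an input tag (orange); points are all windows pooled and bars are the SD over 19 autosomes. The dotted line marks the threshold of members; the back-to-back ratio is higher to its right, while the short facing ratio has already come down to near 1 at 21 to 29 tags.

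Windows just inside and just outside the threshold differed by less than the spread over autosomes. The 2994 members with 30 to 31 ChIP tags (just inside, ChIP 30 to 31) had a back-to-back ratio of 1.21 ± 0.101 and a short facing ratio of 1.02 ± 0.080. The 3893 windows with 28 to 29 ChIP tags (just outside, ChIP 28 to 29) had 1.16 ± 0.121 and 1.02 ± 0.068. On the side of the input, 259 windows had 30 or more ChIP tags but 10 or more input tags (outside, ChIP 30 and over with input 10 and over), with 58.3 ChIP and 27.6 input tags on average. Their most frequent plus-to-minus distance was 36 bp, their back-to-back ratio 1.14 and their short facing ratio 1.31. With these windows pooled, dense in both libraries, the short facing ratio was thus above the 1.20 of comparison windows and further above the 1.02 of members. No spread over autosomes was computed for these 259 windows, so how firm this order is was not tested.

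Among members, classes by input count or by a neighbouring member did not differ beyond the spread over autosomes in either ratio. The back-to-back ratio was 1.20 in members without an input tag (members, input 0; SD 0.267), 1.23 in those with 1 to 2 (members, input 1 to 2; SD 0.089) and 1.25 in those with 3 to 9 (members, input 3 to 9; SD 0.052). The short facing ratios of the same classes were 1.07, 1.01 and 1.02. The 7272 members alone had a back-to-back ratio of 1.23 (SD 0.054) and a short facing ratio of 1.02. The 6135 members adjoining a member had 1.25 (SD 0.059) and 1.01.

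Comparison windows far from any member had the higher short facing ratio. The short facing ratio was 1.09 ± 0.087 in comparison windows 2 to 10 kb from a member, 1.13 ± 0.032 in comparison windows 11 to 100 kb from a member, and 1.27 ± 0.040 in comparison windows over 100 kb from a member. In pairs of a ChIP and an input tag the same 3 classes stood at 1.08, 1.10 and 1.25. The 2 nearer classes did not differ beyond their spread, and both lay between members and the farthest class. The back-to-back ratio of these classes was 1.06 ± 0.136, 1.04 ± 0.044 and 1.00 ± 0.038, all below the 1.24 of members. It was lower farther from members, but the classes overlapped within their spread. The 3 classes held 64178, 392435 and 650825 windows. Comparison windows next to a member numbered only 1145, with 11658 opposite-strand pairs, and their ratios are not given here.

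Tags on the same strand clustered at very short distances in both kinds of window. At 1 to 5 bp the level was 1.432 ± 0.039 in members and 1.619 ± 0.045 in comparison windows, lower in members in 19 of 19 autosomes. When the partner of a tag could lie in any window, the values were 1.97 and 1.49. Those were divided by the mean pair count at long distances and not by even placement. Partners so far from a member's tag often lie outside the dense window, which can raise the members' value. The opposite order is therefore not read as a result. At 1 bp alone members stood at 1.89, with 16757 pairs, and at 5 bp at 1.18. In pairs of a ChIP and an input tag, which cannot be repeats within a library, the level at 1 to 5 bp was 1.38 in members and 1.48 in comparison windows, and members were lower in 15 of 19 autosomes. Members alone stood at 1.48 and members adjoining a member at 1.38 in pairs of ChIP tags. Comparison windows within 2 to 10 kb of a member stood at 1.40 and those over 100 kb away at 1.75, so with both tags in a window this short-range clustering was higher far from members.

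The step of about a helix turn was weak in members. Same-strand pairs from 15 bp up had their highest periodic component at 10.1 bp both in members and in comparison windows, within a search from 8 to 13 bp. Its amplitude was 0.962% ± 0.642 in members and 1.32% ± 0.495 in comparison windows, and members were lower in 13 of 19 autosomes, so the difference was within the spread over autosomes. In single autosomes the period in members ran from 8.2 to 13 bp, and in members with 40 to 49 ChIP tags (ChIP tags 40 to 49) it was 8.7 bp with all autosomes pooled, so the period was not resolved in these subsets. In pairs of a ChIP and an input tag the amplitude was 0.749% in members and 1.73% in comparison windows, lower in members in 14 of 19 autosomes.

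Same-strand pairs were slightly more frequent in members at nucleosome-sized distances and also at the distances around them. After removal of a smooth trend, the maxima lay at 183, 363 and 567 bp in members and at 190, 380 and 552 bp in comparison windows. Each maximum was sought in a preset range, so that 3 are found in any curve. The position of the first ranged from 153 to 228 bp over autosomes in members and from 146 to 230 bp in comparison windows, so the positions were not distinguishable. The level at the first maximum was 1.04 in members and 0.995 in comparison windows, higher in members in 19 of 19 autosomes. Each autosome was read at its own maximum, which can favour members, since they held fewer pairs (4432942 against 7714439). Members were also higher at the minimum before the first maximum, at 1.01 and 0.986. The trough after the first maximum lay at 283 bp in members, with a level of 0.994, and at 268 bp in comparison windows, with 0.969. At 200 to 300 bp members stood at 1.005 and comparison windows at 0.977, higher in members in 19 of 19 autosomes. The members' higher level was therefore not confined to the first maximum. Levels are scaled to the total pairs of the windows, so a higher level at short distances goes with lower levels elsewhere. Comparison windows were the higher at 1 to 5 bp. How much of their lower level at longer distances this makes up was not tested.

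The height of the first maximum over its trough was 1.043 ± 0.019 in members (lowest 0.995, median 1.04, highest 1.08) and 1.027 ± 0.012 in comparison windows (lowest 1.00, median 1.03, highest 1.05). Members were higher in 15 of 19 autosomes and the ranges overlapped. With at most 1 tag per strand within 5 bp the order turned, to 1.023 in members and 1.027 in comparison windows. With the partner of a tag in any window the height was 1.07 in members and 1.015 in comparison windows, higher in members in 19 of 19 autosomes. In that setting pairs were not divided by even placement. A fall in pairs with distance, set by the choice of dense windows, can by itself raise this height in members. It is therefore not read as a higher nucleosome-sized maximum. In pairs of a ChIP and an input tag the first maximum lay at 175 bp in members and 173 bp in comparison windows. Members stood at 1.02 there and comparison windows at 1.00, while at the minimum before it members were the lower, at 0.976 against 0.984. Each autosome was read at its own maximum and minimum, and the members' excess at the maximum was larger in each single autosome than in all pooled, so autosome counts are not given for these 2 levels. The height over the trough was 1.04 and 1.03, higher in members in 12 of 19 autosomes. For pairs inside a window the difference in height was thus within the spread over autosomes, and its size and direction depended on which tags and partners were counted.

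**Figure D4:**
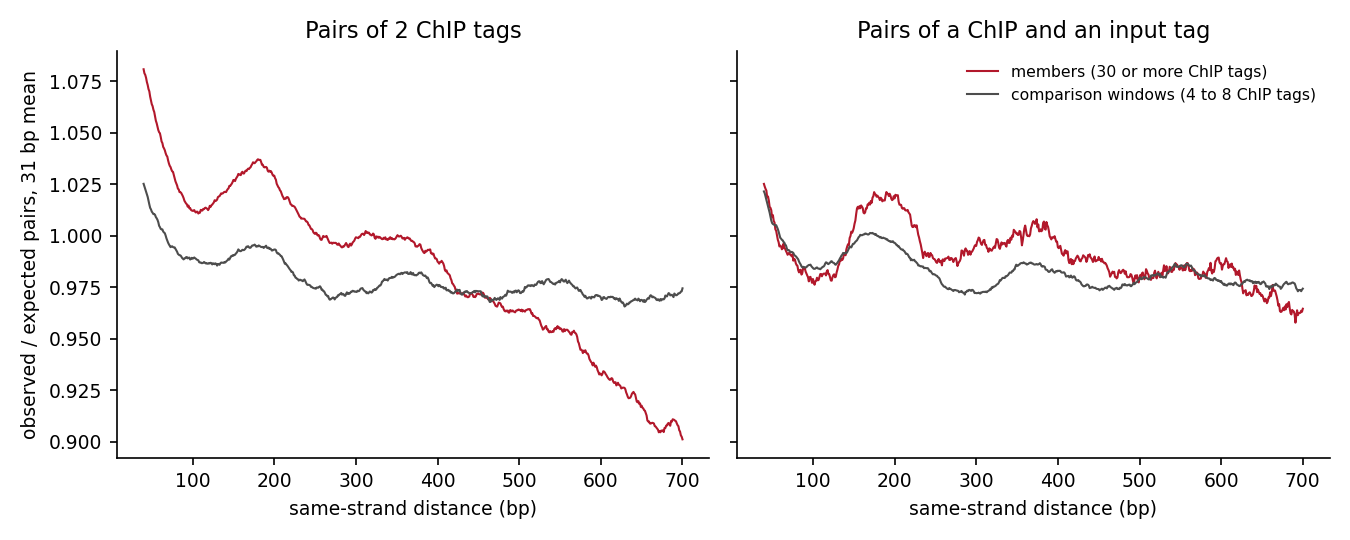
Observed over expected same-strand pairs, as a 31 bp running mean, by distance in bp, for 2 ChIP tags (left) and for a ChIP and an input tag (right). Members (red) and comparison windows (grey) both rise to a maximum between 170 and 190 bp; in pairs of ChIP tags the members' curve slopes down across the window.

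Single members did not show a row of nucleosomes that could be read from tag density. Smoothed with a Gaussian of SD 20 bp, the ChIP tags of a member had a mean of 9.69 maxima (median 10, lowest 4, highest 15), and neighbouring maxima were a median of 95 bp apart (quartiles 73 and 126 bp). Distances of 140 to 220 bp, where nucleosome spacing would fall, made up 15.9%. These values followed the smoothing, with 12.4 maxima at a median of 73 bp for SD 15 bp and 6.66 maxima at 142 bp for SD 30 bp. They therefore describe how many tags a member holds and how they are smoothed, and give no spacing of their own.

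Around the densest point of each member's moved ChIP tags, input tags were also raised. The points were chosen on ChIP tags, so the ChIP level there, 33.8 times its autosomal mean, is a description. The input, which had not chosen them, stood at 2.61 times its autosomal mean at the same point (794 tags, exact Poisson 95% interval 2.43 to 2.80), 2.18 (2.02 to 2.35) at 10 bp to the left and 2.30 (2.13 to 2.47) at 10 bp to the right. By 30 bp it was back to 1.62 (1.48 to 1.77) and 1.70 (1.56 to 1.86). The highest input thus lay in the 3 bins at and next to the point. Further out, input stood at 1.67 (1.53 to 1.83) and 1.70 (1.56 to 1.86) at 170 bp on either side and at 1.50 (1.36 to 1.64) and 1.41 (1.28 to 1.55) at 130 bp. The intervals on the left overlapped, those on the right only just did not, and 119 positions were measured. The ChIP level was 6.68 and 6.71 at 170 bp and 6.24 and 6.11 at 130 bp. Intervals cover counting error only. No such profile is given for comparison windows, so the input peak is not shown to be particular to members. Same-strand pairs of a ChIP and an input tag also clustered at 1 to 5 bp in comparison windows, at 1.48 against 1.38 in members.

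**Figure D5:**
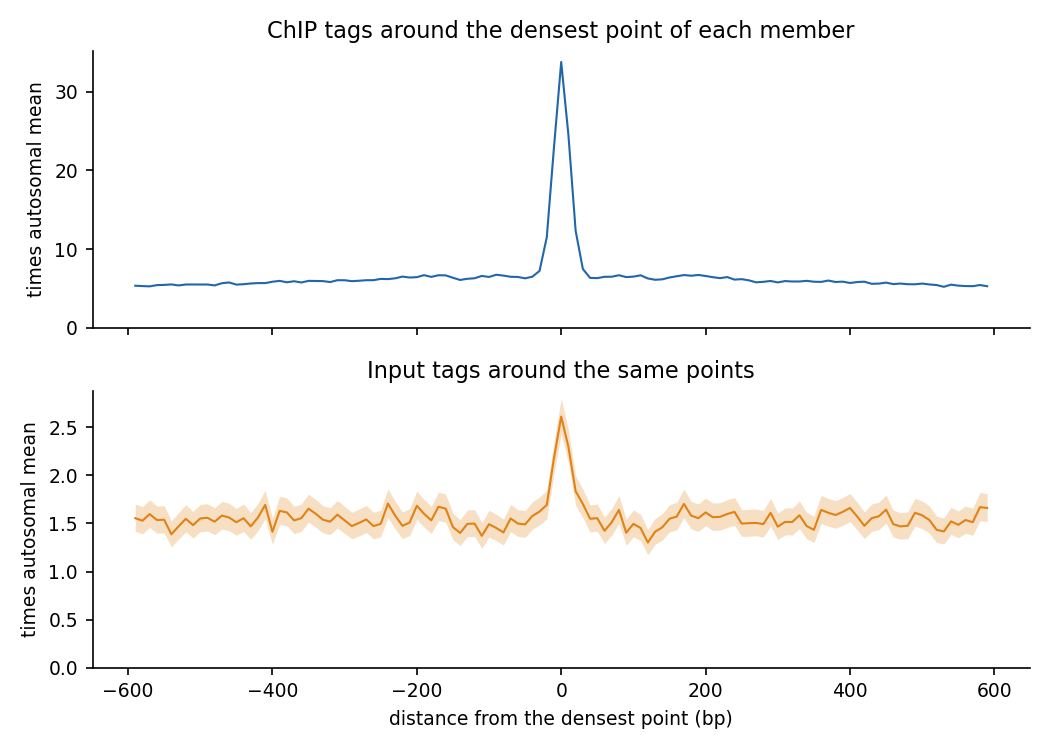
Tags per 10 bp bin, as times the autosomal mean of the library, by distance in bp from the densest point of ChIP tags in each of the 13407 members, for ChIP (top) and input (bottom; band, 95% interval). ChIP was used to choose the points; input, which was not, peaks at 2.61 at the same point and lies between about 1.3 and 1.7 beyond 20 bp.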

How the data were processed

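Tag positions were compared inside windows of 1 ChIP and 1 input library. Per the labels, chromatin was released with micrococcal nuclease and sonication; the submitters' processing notes name Bowtie and mm9, without versions. The deposited files list a chromosome, strand, position and count of tags (at most 2 per position on autosomes), with no normalization recorded. Other filters by the authors are not given in the sources used here. Whether positions start at 0 or 1 is not stated, so they may be off by 1 bp.

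Tags were moved 75 bp along their strand and counted in windows of 1000 bp. Distances were taken between tags of a window and divided by the number expected from even placement. The regions named are the 6 members with most tags, all or 1 per strand within 5 bp, and the 3 longest runs, ties by chromosome and position. The back-to-back and short facing ratios were chosen after the distances had been seen. The members and lists were chosen with earlier results of these data known. With 1 library per group no test was run; depth limits the precision, and the tags and pairs behind each value are given. The steps were tested on simulated data. Alternatives varied the thresholds, the window grid, neighbouring tags, distance ranges and smoothing. Gene annotation was not used here. Python 3.11.15, numpy 2.4.6, pandas 2.3.3, scipy 1.17.1, numba 0.67.0 and matplotlib 3.10.9 were used.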

Additional observations from a re-analysis of the deposited data

How the results depend on the processing

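Of 205 recomputed values, 185 moved by less than their spread and 20 by more. The spread was that over autosomes, or over members for the maxima of tag density, and the limit for the number of members was 1.5 times. Single autosomes vary more than a pooled value, so this limit is wide. A members' period of 8.7 bp with 40 or more ChIP tags, against 10.1 bp, stayed within it. So did a members' opposite-strand summit of 83 bp with 1 tag per strand within 5 bp, against 60 bp. In every alternative run, members stayed above comparison windows in the back-to-back ratio and below them in the short facing ratio, for pairs of ChIP tags and for pairs of a ChIP and an input tag; the fewest autosomes with that order were 12 of 19, for the back-to-back ratio of ChIP and input tags with 2 or fewer input tags. The number of members followed the thresholds: 3177 with 40 or more ChIP tags, 47186 with 20 or more, 4278 with 2 or fewer input tags and 7740 with 1 tag per strand within 5 bp. With 1 tag per strand within 5 bp, the members' first maximum over trough was 1.023 and their most frequent opposite-strand distance -5 bp. This setting also gave a short facing ratio of 1.155 in comparison windows and a level of 1.252 at 1 to 5 bp for ChIP and input tags in members. Unmoved tags also gave -5 bp. With 20 or more ChIP tags the members' back-to-back ratio was 1.177. With the partner anywhere, same-strand pairs at 1 to 5 bp stood at 1.969 in members and 1.487 in comparison windows, which turned their order. The members' first maximum over trough was then 1.07 against 1.015, higher in 19 of 19 autosomes. That setting divided by pair counts at long distances and not by even placement. A fall in pairs with distance from a dense window was thus not removed, so neither order can be set beside the main run. Against windows with 9 to 20 ChIP tags, the comparison had 1.503 at 1 to 5 bp and a short facing ratio of 1.144. With wider ranges (2 to 10 bp, and 25 to 50 bp), the back-to-back ratio was 1.088 in members, 0.9556 in comparison windows and 1.074 for ChIP and input tags in members; the wider range takes in the gap at -2 bp. A Gaussian of SD 15 bp gave 12.37 maxima per member and SD 30 bp gave 6.655. For the other settings the cause was not tested. Same-strand pairs at 1 to 5 bp have no value with 1 tag per strand within 5 bp, since that setting removes them. The input, with 3.54 tags per member, limits what its own pairs can show. No paired analysis was possible because the ChIP and the input are single libraries.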

Other observations

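The rule was stated for autosomes, and few windows of the sex chromosomes would have met it. On chromosome X, 12 of 166629 windows (0.0072%) had 30 or more ChIP tags and 9 or fewer input tags, and on chromosome Y 0 of 2902 did. The threshold of 30 tags was the same although depth was lower there: chromosome X held 2.17 ChIP and 1.01 input tags per window and chromosome Y 1.44 and 0.861, against 4.73 (chromosome 14) to 6.33 (chromosome 11) ChIP tags per window on autosomes. The share of windows is therefore not compared with that of autosomes. The labels do not state the sex of the embryos, and these windows entered no value above.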
